A study of Mus musculus with 20 samples.

Results

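The genes described are those whose symbol in the annotation of the Affymetrix MG_U74Av2 array names a protein of the cytosolic ribosome: Rps for the small subunit, Rpl for the large subunit and Rplp for its acidic stalk. The rule used the symbol alone and no measured value. It found 34 genes, read by 48 probe sets that carry 1 symbol, of 8251 such genes on the array. Another 39 probe sets carry a matching symbol among several symbols, and they are given by probe set name only, because the gene they read cannot be named.

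The mice were female and 32 to 34 weeks old, and RNA of their quadriceps or of their left ventricle was hybridised, 5 mice to each of 4 groups. C57BL/6 mice, the normal controls, gave a quadriceps and a left ventricle group, and SJL/J mice gave the same pair. SJL/J is an inbred strain whose dysferlin gene carries an in-frame deletion of 171 bp that removes 57 amino acids, and its limb muscle degenerates with age. The deletion comes with all other differences between the strains, so the 2 cannot be told apart. Dysferlin itself was not followed here. For SJL/J quadriceps 1 label field names the left ventricle as the source of the RNA, while the title, the source name and the keywords name quadriceps.

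Nearly every ribosomal protein is present as a single copy in each ribosome, and cells make these proteins in matched amounts. Their messengers begin with a short run of pyrimidines, the 5′ terminal oligopyrimidine (TOP) tract, through which the mTOR pathway chiefly controls their translation. In muscle, the number of ribosomes sets the capacity for protein synthesis during growth and repair. Several of the genes are mutated in Diamond-Blackfan anaemia in humans, among them RPS19, RPS24, RPS10, RPS7 and RPS28.

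The start-site windows of 5 members called in the left ventricle, with log2 differences from -0.57 to 0.75, are shown. These members were chosen because they hold a pyrimidine run near the annotated start, whichever way their signal differed. The windows are 40 bases before and 20 bases after the start annotated by RefSeq on build GRCm38.p6, 5′ to 3′ on the gene's strand. Capitals mark a run of at least 5 pyrimidines that starts with C within 10 bases of the start, on either side. The run of Rpl6 ends before the annotated start and so lies outside the annotated messenger.
Rpl13a (chr7:45128726-45128785, minus strand): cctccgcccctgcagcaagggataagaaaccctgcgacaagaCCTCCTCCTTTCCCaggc
Rps24 (chr14:24490638-24490697, plus strand): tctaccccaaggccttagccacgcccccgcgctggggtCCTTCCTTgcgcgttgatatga
Rps10 (chr17:27635225-27635284, minus strand): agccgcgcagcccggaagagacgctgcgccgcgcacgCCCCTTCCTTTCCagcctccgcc
Rps18 (chr17:33955646-33955705, minus strand): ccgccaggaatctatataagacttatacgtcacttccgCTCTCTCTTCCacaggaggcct
Rpl6 (chr5:121204461-121204520, plus strand): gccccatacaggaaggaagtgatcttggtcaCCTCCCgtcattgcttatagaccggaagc

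Of the 34 members, 27 matched the RefSeq table. Of these, 16 (59.3%) had such a run on the gene's strand near 1 or more annotated starts, against 32.6% of all 27025 genes in the table. In Rpl6, Rpl10a, Rpl19, Rpl22 and Rpl39l the run ended before that start, outside the messenger annotated from it. The letters CCGGAAG, bound by the ETS family of factors, lay on either strand within 250 bases before to 50 bases after a start in 11 members (40.7%), against 9.93% of all genes. The letters AAGATGG, bound by YY1, lay there in 7 members (25.9%), against 7.28% of all genes. The ETS and YY1 letters can overlap at AAG. The pyrimidine run was found in 3 of the 6 members that were higher in SJL/J left ventricle. It was found in 6 of the 9 matched members that were lower there, with Rpl6, Rpl19 and Rpl22 among them. These matches describe the windows and not which factor was bound. Rps4l had no entry in the table.

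Several arrays stood apart from their group before any comparison. SJL/J quadriceps arrays 1 and 5 carried heart muscle transcripts at 0.936 and 1.13 of the mean of C57BL/6 left ventricle, summed over the marker list, and their skeletal muscle transcripts were at 0.513 and 0.516 of the C57BL/6 quadriceps mean. SJL/J left ventricle array 1 and C57BL/6 left ventricle array 5 carried skeletal transcripts at 0.266 and 0.169. SJL/J quadriceps array 3 and C57BL/6 quadriceps array 2 carried heart transcripts at 0.252 and 0.153. C57BL/6 quadriceps array 4 had a skeletal share of 1.95, and 19 of the 25 members tested were highest there within the group. The ratio of 5′ to 3′ Gapdh signal, a measure of RNA integrity, was 0.697 to 0.866 in C57BL/6 left ventricle, 0.101 to 0.470 in SJL/J left ventricle, 0.487 to 1.06 in C57BL/6 quadriceps and 0.267 to 0.663 in SJL/J quadriceps. The arrays were processed in 5 fluidics runs that overlap little between the strains and not at all between the C57BL/6 tissues. Run 3 held SJL/J quadriceps arrays 1 and 5, SJL/J left ventricle array 1 and C57BL/6 left ventricle array 5.

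Of the 34 members, 25 passed the filter on dim signals (a group mean above 68.8 in at least 1 group). The 9 that did not were Rps14, Rps15, Rps20, Rps27l, Rpl32, Rpl35a, Rpl38, Rpl39 and Rpl39l. Most members that passed are bright on this array, but the brightness of different probe sets does not rank the genes. Differences are log2 values with their standard errors (SE), n = 5 per group, from limma fitted over 5473 genes, and calls were made where the p-value after Benjamini-Hochberg adjustment was under 0.05. Fewer cells of a type and less RNA per cell cannot be told apart in whole tissue.

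The common level of the ribosomal protein genes lay close to their mean on most arrays, and C57BL/6 quadriceps array 4 stood apart. The level of the 25 members on an array was summarised as the median over members of the log2 signal minus the gene's mean over the 10 arrays of the tissue. In C57BL/6 quadriceps these medians were -0.11, -0.07, 0.11, 0.74 and 0.10 on arrays 1 to 5. In SJL/J quadriceps they were -0.37, -0.07, -0.10, 0.12 and -0.15. Array 4 of C57BL/6 was the highest of the 10 and array 1 of SJL/J the lowest, and the other 8 arrays overlapped. In C57BL/6 left ventricle the medians were 0.02, 0.16, 0.10, 0.18 and 0.08. In SJL/J left ventricle they were -0.13, -0.08, -0.04, 0.01 and -0.16, all below every C57BL/6 array, by a distance smaller than the spread of members on any array. The medians over all 5473 genes stayed between -0.083 and 0.119.

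**Figure D1:**
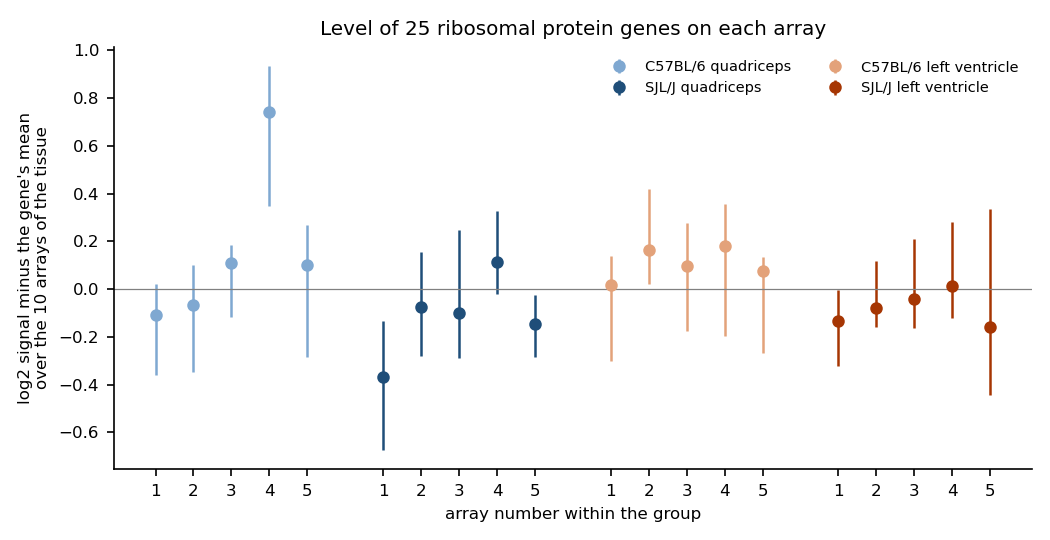
Median (point) and lower to upper quartile (bar) over 25 ribosomal protein genes of the log2 signal minus the gene's mean over the 10 arrays of its tissue, for each of the 20 arrays, coloured by group. C57BL/6 quadriceps array 4 stands at 0.74 and SJL/J quadriceps array 1 at -0.37, while the 5 SJL/J left ventricle arrays lie between -0.16 and 0.01.

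In the left ventricle, where the comparison asks how the heart of SJL/J mice differs from the normal heart, ribosomal protein genes differed in both directions. Of the 25 members, 6 were higher in SJL/J (17.6% of all genes tested were called higher) and 11 were lower (15.8% of all genes tested). Of the 13 small subunit genes 4 were higher and 5 lower, of the 11 large subunit genes 2 were higher and 5 lower, and the stalk gene Rplp0 was lower. The median over the members was -0.21, against 0.04 over all genes, and single members ran from -1.15 to 0.75. The lowest value is that of Rps4l, counted among the 11, which passed the filter only through its C57BL/6 left ventricle signal.

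Rpl13a, a large subunit protein that also leaves the ribosome to silence messengers of inflammatory genes in myeloid cells, was the member with the largest increase. Its signals were 147.0, 226.6, 214.2, 174.8 and 134.4 in C57BL/6 and 241.4, 312.7, 316.3, 323.9 and 287.5 in SJL/J left ventricle. All 5 SJL/J arrays lay above all 5 C57BL/6 arrays, and the log2 difference was 0.75 ± 0.16 (limma adjusted p = 0.0034). Rps24, a small subunit protein, read 5500, 6513, 5442, 6049 and 5671 in C57BL/6 and 7626, 7866, 8707, 8866 and 12550 in SJL/J. The groups did not overlap, the highest value was on SJL/J array 5, and the log2 difference was 0.62 ± 0.13 (adjusted p = 0.0031). Rps28, another small subunit protein, read 6743, 8063, 7107, 7504 and 6596 in C57BL/6 and 8176, 10419, 11673, 11378 and 15519 in SJL/J, again with array 5 highest. Its log2 difference was 0.64 ± 0.14 (adjusted p = 0.0050). The other 3 increases were smaller and their groups overlapped: Rpl41, which encodes the shortest protein of the large subunit, at 0.43, Rps10 at 0.33 and Rps3, which also has a role in DNA repair, at 0.31. The probe sets of Rps24, Rps28 and Rpl41 carry names that mark them as possibly shared between related transcripts, and their values are uncertain in that respect. The calls of Rps10 and Rps3 were weak: of 26 alternatives, 14 and 12 ended them and 1 turned their sign, and leaving out C57BL/6 array 1, 3, 4 or 5 or SJL/J array 2, 3 or 4 was enough to end either.

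Among the decreases, Rps4l, a homologue of the small subunit gene Rps4x, had the largest log2 difference, but its size and rank are not reliable. Rps4l was tested only because its C57BL/6 left ventricle signal passed the filter. It was dim, at 132.3, 149.3, 172.0, 162.5 and 132.0 in C57BL/6 and 68.1, 76.7, 80.0, 71.9 and 45.4 in SJL/J left ventricle. The groups did not overlap (-1.15 ± 0.18, adjusted p = 0.00043), the SJL/J mean of 68.4 lay just under the filter signal, and its probe set also has a name that marks it as shared. Rps4x itself was at 0.07 ± 0.10 and was not called.

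Rpl37a, a zinc-binding protein of the large subunit, read 1525, 1574, 1269, 1385 and 1187 in C57BL/6 and 857, 899, 1005, 925 and 902 in SJL/J. Every SJL/J array lay below every C57BL/6 array (-0.59 ± 0.10, adjusted p = 0.00072). Rpl6, also of the large subunit, read 3404, 3705, 3394, 3588 and 2990 in C57BL/6 and 2237, 2517, 2465, 2531 and 1829 in SJL/J. Its groups were apart as well (-0.57 ± 0.11, adjusted p = 0.0017), with SJL/J array 5 lowest. Rps18, a protein of the head of the small subunit, read 4125, 5312, 4810, 4740 and 4166 in C57BL/6 and 2570, 3370, 3721, 3661 and 3494 in SJL/J, without overlap (-0.47 ± 0.12, adjusted p = 0.0088).

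Rps7, a small subunit protein, read 2855, 3768, 3307, 3310 and 2859 in C57BL/6 and 2446, 2550, 2192, 2499 and 1394 in SJL/J. The groups did not overlap, but SJL/J array 5 lay far below the other 4 (-0.56 ± 0.16, adjusted p = 0.015). Rpl22, a large subunit protein needed for the development of T cells, read 171.0, 205.6, 201.7, 196.8 and 196.1 in C57BL/6 and 170.1, 124.5, 129.0, 113.9 and 85.4 in SJL/J, so that the groups nearly touched (-0.67 ± 0.16, adjusted p = 0.0077). The remaining 5 decreases were those of Rps19 (-0.73), Rpl8 (-0.48), Rpl19 (-0.43), Rps3a1 (-0.31) and Rplp0 (-0.30), with adjusted p from 0.0070 to 0.039. The call of Rps3a1 ended in 13 of 26 alternatives and its sign turned in 1, and leaving out any C57BL/6 array or SJL/J array 2 or 3 ended it. Rplp0 is the base of the acidic stalk and is often used as a reference gene. It read 5033, 6003, 5573, 5660 and 5292 in C57BL/6 and 4876, 4439, 4536, 4557 and 3974 in SJL/J, without overlap. The 8 members not called were Rpl10a, Rpl7, Rpl7a, Rpl7l1, Rps4x, Rps13, Rps27 and Rps29, with log2 differences from -0.24 to 0.36.

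**Figure D2:**
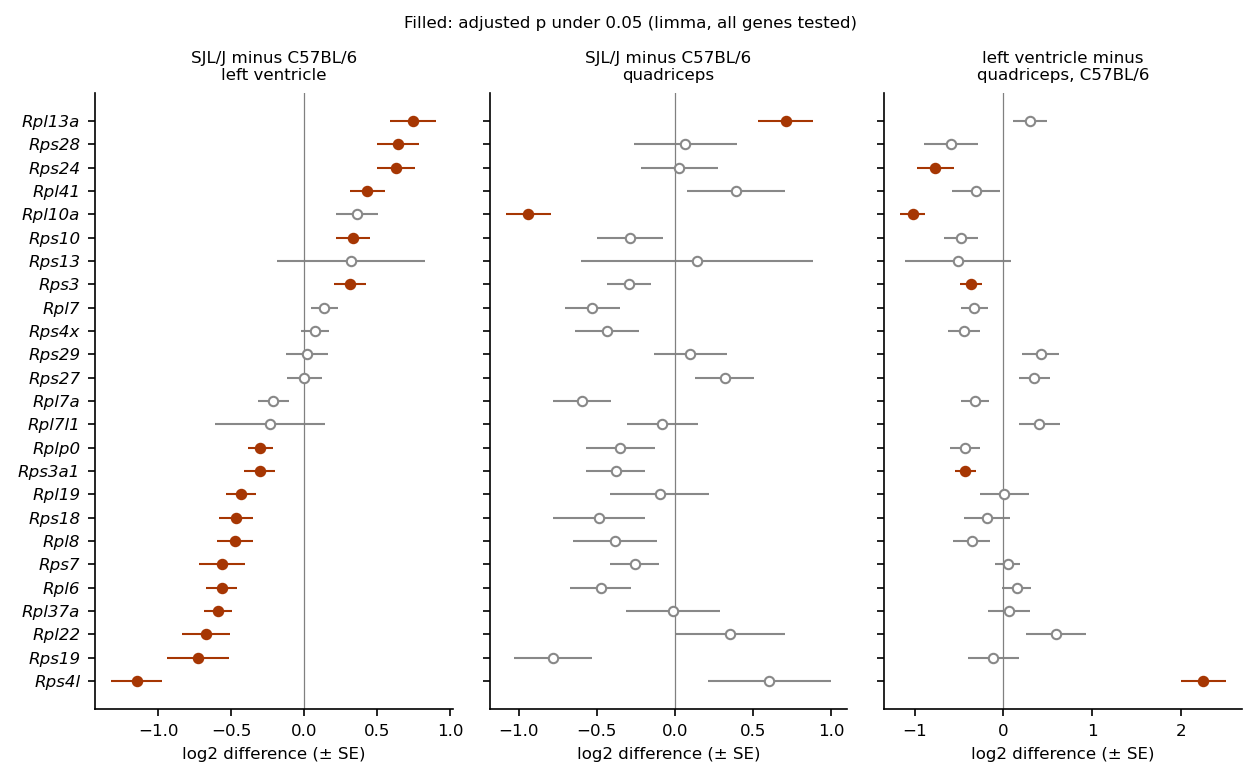
Log2 differences with SE for the 25 members, in the left ventricle and quadriceps (SJL/J minus C57BL/6) and between the tissues of C57BL/6 (left ventricle minus quadriceps), with members in the order of the left ventricle panel. Filled points have an adjusted p under 0.05: 17 in the left ventricle, 2 in quadriceps and 5 between the tissues.

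The Gapdh ratio separated the left ventricle groups, at 0.697 to 0.866 in C57BL/6 and 0.101 to 0.470 in SJL/J. SJL/J left ventricle array 5, with the lowest Gapdh ratio of all arrays (0.101), was the highest SJL/J array for 4 of the 6 increased members and the lowest for 7 of the 11 decreased members. SJL/J array 1, with the highest ratio of its group (0.470), was the highest for 0 of the 6 and the lowest for 3 of the 11. Over all 25 members, array 1 was the lowest SJL/J array for 14 and array 5 for 8. Without SJL/J left ventricle array 5 and SJL/J quadriceps array 1, 5 members were higher and 11 lower. With the Gapdh ratio as a covariate, 0 members were called in either direction by limma, 3 had an unadjusted p under 0.05, and 9 of the 17 called members kept their direction. As the ratios of the groups do not overlap, this fit cannot tell RNA integrity from strain. With fluidics run as a block, 0 were called and 4 had an unadjusted p under 0.05. That estimate rests on the 2 left ventricle arrays of run 3, C57BL/6 array 5 and SJL/J array 1, between which all 17 differences had the direction of the whole comparison. These 2 arrays are part of that comparison, and both carried skeletal transcripts, at 0.169 in C57BL/6 and 0.266 in SJL/J. The shares of all genes called in these alternative fits are not given. The part of RNA integrity and run in the differences was not tested further. Markers of other cells moved as well: the sums of 6 adipocyte markers were 10074 to 14626 in SJL/J and 6916 to 7902 in C57BL/6 left ventricle, and those of 13 lymphocyte markers were 694 to 869 and 464 to 691. Of the lymphocyte markers, 8 in SJL/J and 9 in C57BL/6 had a mean under the filter signal. The part of these cells was not tested.

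**Figure D3:**
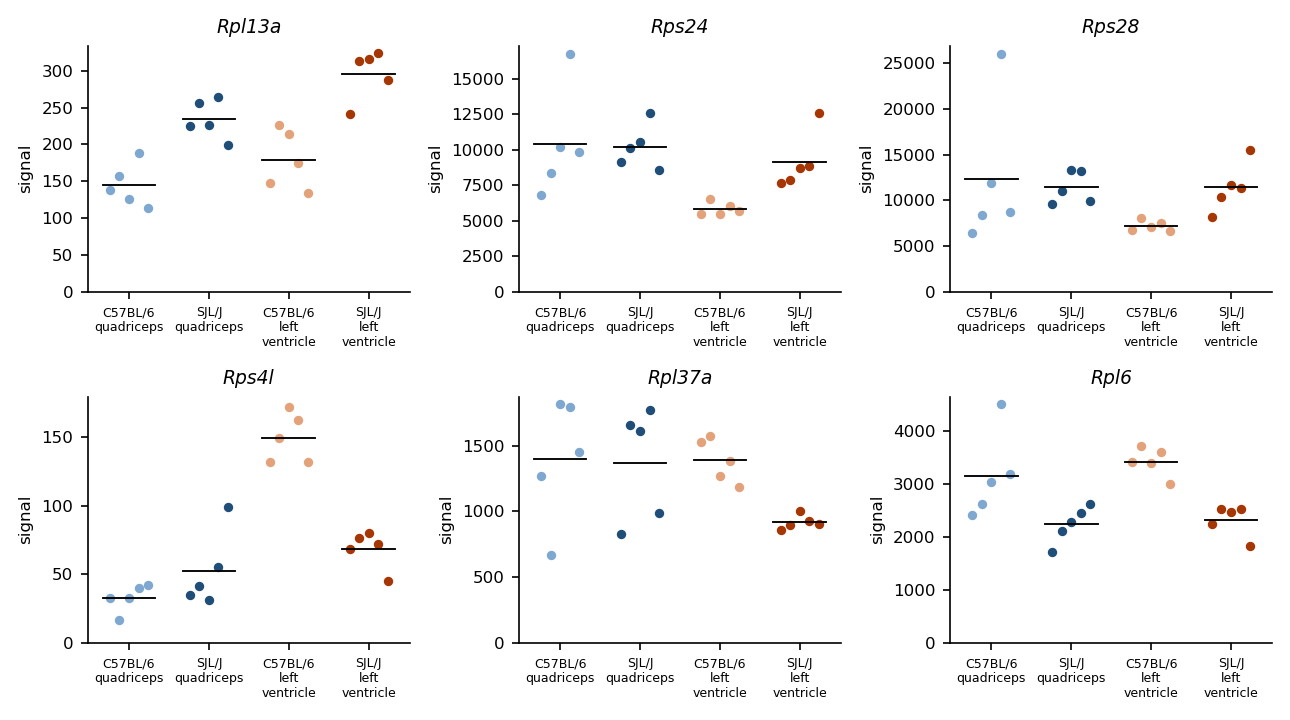
Signal on each array (points, in array order within a group) and group mean (line) of Rpl13a, Rps24, Rps28, Rps4l, Rpl37a and Rpl6 in the 4 groups. Rpl13a is higher in SJL/J in both tissues, and the signals of C57BL/6 quadriceps array 4 for Rps24 (16771) and Rps28 (25981) lie above all other arrays.

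The 39 probe sets that carry several symbols included larger decreases than those of the named genes. Of 34 that were tested in a fit over 7121 probe sets, 4 were higher (16.2% of all probe sets) and 11 lower (16% of all) in SJL/J left ventricle. Probe set 92628_at read 2747, 2951, 4249, 3894 and 3441 in C57BL/6 and 908, 796, 1077, 1053 and 370 in SJL/J (-2.11 log2). Probe set 97647_at read 1534, 1714, 1549, 1712 and 1540 in C57BL/6 and 425, 416, 554, 406 and 466 in SJL/J (-1.83). Both pairs of groups were far apart. Probe sets 93730_at (-1.33), 100694_at (-1.07) and 102109_at (-1.03) followed. The largest increase was that of 101129_at (0.71).

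SJL/J quadriceps array 1 took values like those of SJL/J left ventricle for many of these probe sets. In SJL/J quadriceps, 97647_at read 362 on array 1 and 1324, 1318, 1650 and 1102 on arrays 2 to 5. Probe set 92628_at read 494 on array 1 against 2263, 2164, 2560 and 2209 on the others. Probe set 93730_at read 968 on array 1 against 2410, 2617, 3432 and 2407. Of the 23 probe sets of ribosomal protein genes, named or not, that were lower in SJL/J left ventricle, 22 were lowest on array 1 within SJL/J quadriceps. Over all 67 probe sets tested, 44 were lowest there. Array 1 also had the lowest Gapdh ratio of the group (0.267) and a high heart share. Its experiment report alone named a fluidics protocol other than that of all other arrays. Array 5, with the higher heart share and a Gapdh ratio of 0.489, was lowest for 0 of the 23. The part of RNA integrity, heart transcripts or protocol in these values was not tested.

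**Figure D4:**
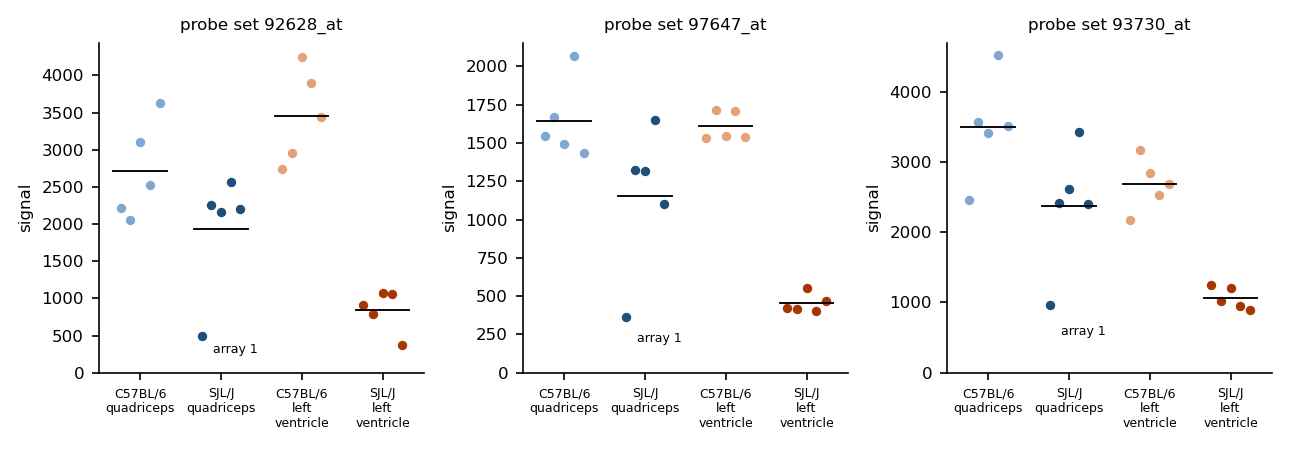
Signal on each array (points, in array order within a group) and group mean (line) of 3 probe sets that carry a matching symbol among several symbols. SJL/J quadriceps array 1 reads 494, 362 and 968, next to SJL/J left ventricle, and the other SJL/J quadriceps arrays read 1102 or more.

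In quadriceps, the dystrophic muscle of SJL/J mice, the counts of ribosomal protein genes called were near the shares over all genes. Of the 25 members, 1 was higher (6.27% of all genes tested) and 1 was lower (5.34%), and 16 had a log2 difference below 0. The median over the members was -0.26, against 0.09 over all genes. Without C57BL/6 quadriceps array 4 the member median was -0.16, with 2 members higher and 1 lower. The share of all genes called without that array is not given. Among the probe sets with several symbols, 0 were called higher (6.12% of all probe sets, with 0 members of the set higher at an unadjusted p under 0.05) and 3 lower (5.39%) by limma, and the lower ones were 101577_at (-0.65), 160081_at (-0.99) and 92577_f_at (-0.86).

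Rpl13a was the increased member here as in the left ventricle. Its signals were 138.8, 156.9, 126.4, 188.6 and 113.5 in C57BL/6 and 225.4, 256.3, 226.4, 264.5 and 198.6 in SJL/J quadriceps. The groups did not overlap (0.71 ± 0.17, adjusted p = 0.022), and the difference between the tissues in this strain difference was -0.04 ± 0.23 (adjusted p = 0.94). Leaving out SJL/J array 2, SJL/J array 4 or C57BL/6 array 3 took the adjusted p to 0.057, 0.056 and 0.056. Blocking on fluidics run ended the call too (0.40, adjusted p = 0.29), as did blocking on chip lot (0.31, adjusted p = 0.45) and adjusting for the Gapdh ratio (0.60, adjusted p = 0.17). The summed signal of the 18 macrophage markers on the array was 2967 to 4578 in SJL/J and 1427 to 2101 in C57BL/6 quadriceps. Of these markers, 7 in SJL/J and 10 in C57BL/6 quadriceps had a mean under the filter signal. In the left ventricle the macrophage sums overlapped, at 3221 to 4676 in SJL/J and 2623 to 3630 in C57BL/6. The sums of 9 markers of regenerating muscle ran from 1074 to 3304 in SJL/J and from 870 to 1072 in C57BL/6 quadriceps. The part of these cells in the Rpl13a signal and in the other quadriceps differences was not tested.

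Rpl10a, which forms the mobile L1 stalk of the large subunit, was the decreased member. Its brighter probe set read 1881, 1807, 2177, 2484 and 2364 in C57BL/6 and 1095, 1261, 1048, 1180 and 987 in SJL/J quadriceps. All SJL/J arrays lay below all C57BL/6 arrays, arrays 1 and 5 among the rest (-0.94 ± 0.15, adjusted p = 0.0026). The call held in every alternative that gave a test, with log2 differences from -1.16 to -0.81.

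Members outside these calls varied with C57BL/6 array 4. Rpl41 read 6862, 8497, 10736, 22987 and 8913 in C57BL/6 and 11330, 15262, 16422, 16996 and 10292 in SJL/J (0.39 ± 0.31, adjusted p = 0.45). All SJL/J arrays but array 5 lay above the C57BL/6 arrays other than array 4, and array 4 lay above them all. Rplp0 read 6113, 7049, 7214, 11380 and 6383 in C57BL/6 and 4368, 6078, 6394, 7344 and 5401 in SJL/J (-0.35 ± 0.22, adjusted p = 0.32). Rps19, at -0.78 ± 0.25, and Rpl7a, at -0.59 ± 0.18, missed the threshold with adjusted p of 0.061 and 0.055. Rpl7, a large subunit protein, read 4857, 5328, 5149, 7820 and 5993 in C57BL/6 and 4359, 3719, 3651, 3703 and 4560 in SJL/J, without overlap, and was not called (-0.53 ± 0.18, adjusted p = 0.071).

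Within run 5, which held C57BL/6 array 4 and SJL/J arrays 2 to 4, the median over the members was -0.79, given here without a test. Over all genes it was -0.0037. With run as a block 1 member was higher and 11 lower, and with chip lot as a block 1 was higher and 12 lower. Both rest on array 4 for C57BL/6, and the shares of all genes called in these fits are not given. The sources used here do not let array and run be told apart.

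Between the normal tissues, 1 of the 25 members was higher in left ventricle than in quadriceps of C57BL/6 mice (30.2% of all genes tested) and 4 were lower (19.5%). The median over the members was -0.31, against 0.14 over all genes. Without C57BL/6 quadriceps array 4 the median was 0.03, with 5 members higher and 7 lower, so this array decides the sign of the median. Without C57BL/6 quadriceps array 1, 1 was higher and 9 were lower. The shares of all genes called without these arrays are not given. No fluidics run held both C57BL/6 tissues: left ventricle was in runs 2 and 3, quadriceps in runs 1 and 5. Of the C57BL/6 quadriceps arrays, array 4 alone came from the chip lot of the left ventricle arrays. Tissue and run therefore cannot be told apart in this comparison.

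Rps4l was the member called higher in the heart (limma adjusted p = 1.6e-05). Its 5 left ventricle signals of 132.0 to 172.0 stood against 16.9 to 41.9 in quadriceps. It was tested only because its left ventricle signal passed the filter, and since the quadriceps signals lay under it, no size of the difference is given. In SJL/J it read 34.6, 41.4, 30.9, 55.6 and 99.2 in quadriceps, where array 5, with the highest heart share, gave the highest value. A second probe set of Rpl19, 161961_at, read 64.2 to 111.8 in left ventricle and 17.2 to 34.0 in quadriceps, also under the filter there, and no size is given for it either. In SJL/J quadriceps it read 100.3, 17.6, 20.1, 10.8 and 160.6, so array 1 lay in the left ventricle range and array 5 above it. The brighter probe set of Rpl19 did not differ beyond its error (0.01 ± 0.27).

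Rpl10a was the member with the largest decrease in heart, at 938, 1342, 1051, 1008 and 956 in left ventricle against 1807 to 2484 in quadriceps (-1.02 ± 0.14, adjusted p = 7.8e-05). Rps24 read 5442 to 6513 in left ventricle and 6809, 8369, 10179, 16771 and 9826 in quadriceps, without overlap (-0.77 ± 0.21, adjusted p = 0.0086). Rps3a1, a small subunit protein, read 4259 to 4394 in left ventricle and 5226, 5358, 5570, 6919 and 6116 in quadriceps (-0.43 ± 0.12, adjusted p = 0.011). Rps3 read 1757 to 2356 and 2394 to 3021 (-0.37 ± 0.12, adjusted p = 0.024), a call that 9 of 25 alternatives ended. Of the probe sets with several symbols, 1 was higher in heart (29.0% of all probe sets) and 12 were lower (19.4%). The lower ones were led by 101680_at, at 647 to 870 in left ventricle and 1638 to 2504 in quadriceps (-1.34). The higher one, 100734_at, read 1203 to 1920 and 440 to 1071 (1.22).

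The strain difference differed between the tissues, by the interaction term over all 20 arrays, for 4 members. It was higher in quadriceps for 1 (9.23% of all genes tested), Rps4l, and lower in quadriceps for 3 (6.80%): Rpl10a, Rpl7 and Rps3. The quadriceps means of Rps4l, 52.3 in SJL/J and 32.8 in C57BL/6, both lay under the filter, so its interaction has no reliable size. For Rps3 the strain difference was -0.30 ± 0.14 in quadriceps and 0.31 ± 0.11 in left ventricle (interaction -0.61 ± 0.17, adjusted p = 0.018). For Rpl7 it was -0.53 and 0.14 (interaction -0.66 ± 0.19, adjusted p = 0.020).

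For Rpl10a the interaction depended on the probe set. The brighter one, 161327_f_at, whose name marks it as shared by a family of transcripts, gave a strain difference of -0.94 in quadriceps and 0.36 in left ventricle, with an interaction of -1.30 ± 0.20 (adjusted p = 0.00038). The other, 100711_at, read 1287, 1068, 1208, 1241 and 1105 in C57BL/6 and 611, 585, 739, 587 and 459 in SJL/J left ventricle. It was lower in SJL/J in both tissues, at -0.86 in quadriceps (adjusted p = 0.031) and without overlap of the groups in left ventricle, and its interaction was 0.14 (adjusted p = 0.76). Both probe sets were lower in SJL/J quadriceps and lower in C57BL/6 left ventricle than in C57BL/6 quadriceps.

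**Figure D5:**
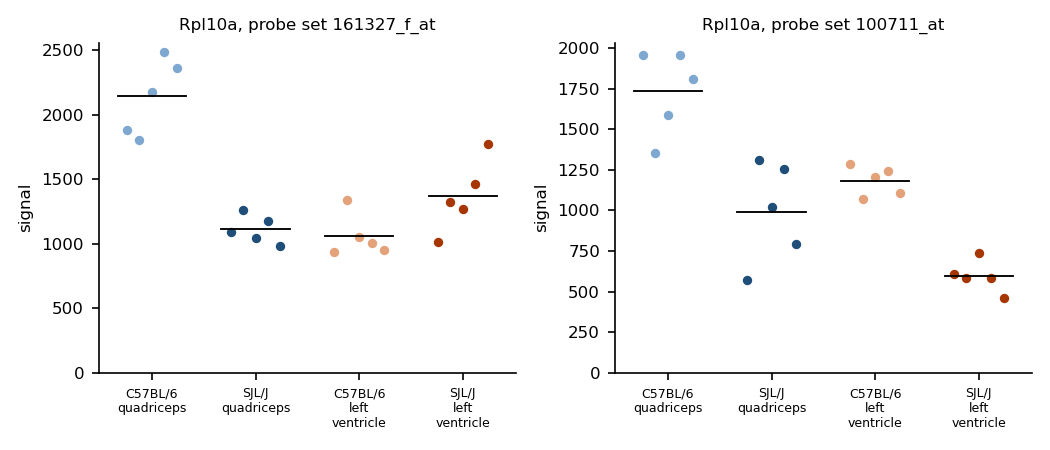
Signal on each array (points, in array order within a group) and group mean (line) of the 2 probe sets of Rpl10a in the 4 groups. Both are lower in SJL/J quadriceps than in C57BL/6 quadriceps, while in the left ventricle 100711_at is lower in SJL/J and 161327_f_at is not.

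Other members with more than 1 tested probe set differed in part as well. In the left ventricle the probe sets of Rps28 gave 0.64 (98085_f_at, called), -0.22 (100758_at) and -0.01 (98086_r_at), and those of Rpl22 gave -0.67 (92857_at, called) and 0.17 (92856_at). The 4 tested probe sets of Rps4x ran from -1.30 to 0.22 in that comparison, none of them called. Leaving out probe sets whose names mark them as shared, Rps28 turned to -0.22 and was not called, and 13 of the 14 called members that remained kept their call.

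Genes that work with the ribosome were followed in 5 lists and mitochondrial ribosomal proteins in a sixth. Their counts stand against the shares over all genes tested given above for each comparison, 17.6% higher and 15.8% lower in left ventricle. In left ventricle, 4 of the 7 elongation and termination factors tested were lower in SJL/J and 0 higher, with a list median of -0.57 (1 was higher at an unadjusted p under 0.05 by limma). They were Eef2, which moves the ribosome along the messenger (-1.22 ± 0.17, adjusted p = 0.00020), Eef1d (-0.58), Eef1a2, the muscle form of the factor that delivers transfer RNA (-0.83), and Eef1a1, its general form (-0.57). Eef2 fell from a mean signal of 2036 to 904, without overlap. Of 26 initiation factors, 6 were higher and 6 lower there (median -0.02). The lower ones included Eif2b5, a subunit of the exchange factor for eIF2 (-1.14 ± 0.12), and the eIF3 subunits Eif3k (-0.63), Eif3l (-0.54) and Eif3b (-0.57).

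Among 12 other genes with a TOP messenger or a place on the ribosome, a list that shares elongation factors with the first, 3 were higher and 4 lower in SJL/J left ventricle. Tpt1, a classical TOP gene, rose by 0.56 ± 0.10 and Btf3, part of the nascent chain complex, fell by 0.57 on the log2 scale. Of 37 ribosome biogenesis genes, 7 were higher, a share near that over all genes, and 10 lower. Bysl, which acts in making the small subunit, was higher (0.74), and Fbl, the methylase of ribosomal RNA (-0.85), and Ubtf, a factor of ribosomal RNA transcription (-1.77), were lower. Of 22 genes that control ribosomal protein synthesis, 3 were higher, Mtor among them (0.77 ± 0.11), and 6 lower, with Akt2 (-2.27), Tsc2 (-0.66) and Akt1 (-0.72). Of 57 mitochondrial ribosomal protein genes, 4 were higher and 21 lower, led by Mrpl12 (-1.81 ± 0.14), with a list median of -0.12. All left ventricle differences of the listed genes come from groups whose Gapdh ratios do not overlap and which shared only run 3. The part of RNA integrity and run in them was not tested.

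In quadriceps, 0 of the 155 genes in these lists were called higher in SJL/J by limma and 11 were called lower, while 6 and 26 had an unadjusted p under 0.05. The members called lower were 1 of 7 elongation and termination factors (Etf1, the release factor, -0.65), 3 of 26 initiation factors and 3 of 37 biogenesis genes. The initiation factors were Eif3e (-1.25 ± 0.19, adjusted p = 0.0022), Eif4b (-0.74) and Eif2b5 (-0.80). The biogenesis genes were Rrn3, a factor for RNA polymerase I (-0.75), Nop16 (-0.78) and Ddx18 (-0.80). Of the 22 control genes 3 were lower: Mstn, the growth inhibitor myostatin (-2.05 ± 0.21), Yy1, named above for its motif (-0.88 ± 0.17, adjusted p = 0.0075), and Pdpk1 (-0.68). Of the 57 mitochondrial ribosomal proteins 1 was lower, Mrps7 (-1.17), and of the 12 other TOP or ribosome genes 0 were called either way, with 1 at an unadjusted p under 0.05, in the lower direction. Over all genes 343 were higher (6.27%) and 292 lower (5.34%). SJL/J quadriceps arrays 1 and 5, which carried heart transcripts, are part of this comparison. Eif3e, Etf1 and Nop16 were also lower in left ventricle than in quadriceps of C57BL/6 mice. The part of heart transcripts in the differences of the listed genes was not tested.

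Between the normal tissues, where 30.2% of all genes tested were higher in heart and 19.5% lower, the lists went both ways. Eef1a1 was higher in left ventricle (1.33 ± 0.17) and Etf1 lower (-1.15). Of the 26 initiation factors 2 were higher and 6 lower in heart, led by Eif3e (-1.58), Eif2s2 (-2.13), Eif4g3 (-2.07) and Eif2b1 (-1.17), and the lower count is near the share over all genes. Of the 37 biogenesis genes 8 were higher, with Polr1e at 1.62, and 12 lower, with Nhp2 at -0.98 and Nop16 at -1.01. Of the 57 mitochondrial ribosomal proteins 7 were higher, with Mrpl12 at 1.14 and Mrpl39 at 0.87, and 9 lower, with Mrps14 at -0.71. For the lists too, tissue and fluidics run cannot be told apart.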

How the data were processed

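Per the file headers, the authors deposited 1 linear intensity per probe set and array. The sources used here do not say how probes were summarised or whether detection was called. The trimmed means of the 20 arrays lay between 199.4 and 199.9. Per the labels, each group held 5 mice, and this number limits the precision.

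Symbols came from the array's annotation: of 12488 probe sets, 10833 have 1 symbol and 396 several, and 10817 matched the RefSeq gene table of GRCm38.p6. A floor of 3.1, the lowest 5% of the values, was applied before taking log2. A gene was read by its brightest probe set and tested if a group mean passed 68.8, the median signal. The model (lmFit and trended eBayes of limma 3.58.1, under R 4.3.3) was run within each tissue, on the C57BL/6 arrays for the tissue contrast and on all 20 arrays for the interaction. Only an untrended limma fit of a single group difference was tried on simulated data, not the trended model or the interaction. Adjusted p-values are Benjamini-Hochberg values over all 5473 genes, or over all 7121 probe sets where each was tested by itself. Summaries and figures used Python 3.11.15, pandas 2.3.3 and matplotlib 3.10.9. Fluidics runs were inferred from hybridisation times in the experiment reports, whose other values were not used as measurements, and chip lot was read per the file headers.

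The members, the lists and the alternatives were chosen with earlier results of these data known. The rule for named genes takes, per comparison, up to 6 called members in each direction without overlap of the groups and with the largest differences, paralogues and Rplp0, members whose probe sets disagree, and up to 4 genes with the smallest p per list. The arrays' replicate numbers were checked for pairing: correlations of same-numbered arrays' deviations ran from -0.25 to 0.13. Differently numbered arrays were not correlated, so this check cannot decide whether the numbers pair the samples, and no pairing was used.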

Additional observations from a re-analysis of the deposited data

Results flagged for a closer look

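Among 104 groups of 5 values looked at (25 members and the median member level in 4 groups), 17 held an array whose gap to its neighbour exceeded Dixon's limit, where chance alone gives about 1 in 20. In C57BL/6 quadriceps array 4 was the high one: Rpl19 at 6532 (others 2114 to 2451), Rpl8 at 5134 (2425 to 2598), Rplp0 at 11380 (6113 to 7214), Rps4x at 9637 (5040 to 5707), Rps29 at 150.3 (74.6 to 86.4) and the median member level at 0.74 (-0.11 to 0.11). Rps4l was low on array 2 of that group, at 16.9. In SJL/J quadriceps, Rps18 was low on array 1, at 2419 (4039 to 4301), and Rps29 on array 3, at 72.6.

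In SJL/J left ventricle array 5 was low for Rps3a1 at 2670 (3657 to 3911), Rps4l at 45.4 and Rps7 at 1394 (2192 to 2550). Array 1 was low for Rps18 at 2570 and Rps4x at 4142, and array 3 for Rpl7l1 at 21.8 (76.3 to 98.3). In C57BL/6 left ventricle Rpl22 was low on array 1, at 171, and Rpl41 high on array 2, at 9969.

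The strain difference differed between quadriceps and left ventricle, by the interaction test, for Rps4l (1.75, adjusted p = 0.0075, from quadriceps signals under the filter and so of no reliable size), Rpl10a (-1.30, adjusted p = 0.00038), Rps3 (-0.61, adjusted p = 0.018) and Rpl7 (-0.66, adjusted p = 0.020), all from limma.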

How the results depend on the processing

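The counts of called members depended on scaling, batch and single arrays. The shares of all genes called under these alternatives are not given, so a changed count is not a result about these members alone. In quadriceps, 2 members were called; centring array medians gave 5, array weights 5, fluidics run as a block 12 (median log2 difference -0.79, as within run 5), chip lot as a block 13 (-0.96), and adding the probe sets with several symbols 6. Leaving out 1 array gave 1 to 3, with 1 left without SJL/J array 2 or 4 or C57BL/6 array 3.

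In left ventricle, 17 were called with a median of -0.21. Run as a block gave 0 (-0.12, as within run 3) and the Gapdh covariate 0, with 4 and 3 at an unadjusted p under 0.05 by limma. Adding probe sets with several symbols gave 33 (-0.084). The median was 0.00994 without the filter, -0.11 with the filter at 200, -0.30 without shared probe sets, and -0.25 to -0.035 leaving out 1 array, nearest 0 without SJL/J array 3. With the Gapdh covariate 8 called members changed sign: Rpl22 (0.40), Rpl41 (-0.24), Rps10 (-0.25), Rps24 (-0.16), Rps28 (-0.29), Rps3 (-0.024), Rps3a1 (0.16) and Rps7 (0.21). The ratios of the left ventricle groups do not overlap, so this fit cannot tell RNA integrity from strain, and the cause was not tested. Without shared probe sets Rps28 read -0.22.

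Between the tissues 5 were called (median -0.31): 12 with medians centred, 8 over single probe sets and 10 with array weights (0.021). The Gapdh covariate gave 14 and several-symbol probe sets 21. Chip lot as a block gave 16 (-0.77), resting on C57BL/6 quadriceps array 4. No run held both C57BL/6 tissues, so no estimate within a run exists. Run entered here as a random effect, with arrays of a run taken as correlated, and gave 3. Quantile normalization gave a median of -0.025. Leaving out 1 array gave 4 to 12 calls and medians of -0.39 to 0.025, the extremes without C57BL/6 quadriceps array 1 or 4. For the interaction 4 were called: 1 without shared probe sets (Rpl10a then at 0.14), 9 with array weights, 10 with chip lot as a block (-0.66) and 7 with several-symbol probe sets, and run as a block moved the median from -0.04 to -0.67.

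Taking the replicate number as a block gave 3 calls in quadriceps, 13 in left ventricle, 5 between the tissues and 4 for the interaction, close to the counts without it. Adding several-symbol probe sets, and leaving out SJL/J quadriceps array 1 with SJL/J left ventricle array 5, were chosen after seeing the data. The arrays carry no detection calls here, so members under 68.8 have no reliable difference.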
